A study of Mus musculus with 8 samples.

Results

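The 31 genes described here encode the machinery that brings glucose into regulatory T cells (Treg), breaks it down to pyruvate and lactate, or diverts it into the pentose phosphate pathway. They were chosen by name, as the glucose transporter, glycolysis, lactate, pyruvate dehydrogenase kinase and pentose phosphate genes of a fixed list. The rule uses no measured value, but earlier results of these data were known when the list was made. All 31 were among the 19826 genes of the deposited table. Polyadenylated RNA was sequenced from CD4+ YFP+ Treg that were sorted from spleen and peripheral lymph nodes of untreated C57BL/6 mice, with 4 libraries in each of 2 groups. Every mouse carried the Foxp3 YFP-Cre/+ genotype, in which the Foxp3 gene drives YFP and the Cre recombinase from 1 of its alleles. The WT libraries came from Pdpk1 +/+ mice and the libraries labelled Pdpk1 KO from Pdpk1 FL/FL mice, whose Pdpk1 alleles are flanked by loxP sites and can be cut by Cre. Since Foxp3 lies on the X chromosome, these mice also hold Treg without Cre, which lack YFP. The age of the mice was not given in the sources used here, and the labels do not tie libraries to single mice, so a p-value here reflects only how much these libraries vary. Pdpk1 encodes the kinase PDK1 of the PI3K pathway. The gene Pdk1 described below is another one and encodes a pyruvate dehydrogenase kinase of the mitochondria.

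In glycolysis, hexokinases trap glucose as glucose 6-phosphate, a chain of cytosolic enzymes turns it into pyruvate, and lactate dehydrogenase turns pyruvate into lactate, which monocarboxylate transporters carry out of the cell. Pyruvate dehydrogenase kinases inhibit the pyruvate dehydrogenase complex, which turns pyruvate into acetyl-CoA in the mitochondria. The pentose phosphate pathway draws on glucose 6-phosphate to make NADPH and ribose 5-phosphate for nucleotides. In T cells, signals through PI3K, AKT and mTORC1 and the transcription factors HIF1 and Myc promote expression of these genes, and Treg are known to depend less on glycolysis than activated conventional T cells.

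HIF1 binds sites with the core ACGTG or GCGTG, and Myc with its partner Max binds the E-box CACGTG. The promoters of Pdk1, Eno1 and Slc16a3 are shown because these were the members past the threshold in the comparison below, and that of Ldha because its window holds E-boxes. Each is the stretch of 250 bases before the RefSeq start (GRCm38.p6, plus strand), written 5′ to 3′, with matches to the E-box or to either HIF1 core, on either strand, in capitals. There were 3 RefSeq starts for Eno1, 2 each for Pdk1 and Ldha and 1 for Slc16a3. The start nearest the annotated 5′ end of the gene was taken, and which start Treg use was not examined. The windows are chr2:71872974-71873223 for Pdk1, chr4:150236458-150236707 for Eno1, chr11:120948817-120949066 for Slc16a3 and chr7:46845554-46845803 for Ldha.
Pdk1: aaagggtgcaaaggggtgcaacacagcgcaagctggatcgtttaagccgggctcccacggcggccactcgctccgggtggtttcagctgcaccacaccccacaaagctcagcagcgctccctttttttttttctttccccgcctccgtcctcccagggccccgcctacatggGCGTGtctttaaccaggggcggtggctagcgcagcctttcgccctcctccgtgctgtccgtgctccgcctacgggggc
Eno1: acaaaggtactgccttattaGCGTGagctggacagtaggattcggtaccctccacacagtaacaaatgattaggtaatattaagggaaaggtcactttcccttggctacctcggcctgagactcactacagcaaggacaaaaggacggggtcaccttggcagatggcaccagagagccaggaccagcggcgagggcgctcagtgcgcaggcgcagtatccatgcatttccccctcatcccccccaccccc
Slc16a3: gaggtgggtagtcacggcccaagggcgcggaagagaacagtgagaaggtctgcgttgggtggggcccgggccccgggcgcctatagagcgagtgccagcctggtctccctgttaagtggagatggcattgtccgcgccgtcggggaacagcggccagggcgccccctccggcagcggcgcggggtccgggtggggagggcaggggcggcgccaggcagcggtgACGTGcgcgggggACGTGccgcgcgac
Ldha: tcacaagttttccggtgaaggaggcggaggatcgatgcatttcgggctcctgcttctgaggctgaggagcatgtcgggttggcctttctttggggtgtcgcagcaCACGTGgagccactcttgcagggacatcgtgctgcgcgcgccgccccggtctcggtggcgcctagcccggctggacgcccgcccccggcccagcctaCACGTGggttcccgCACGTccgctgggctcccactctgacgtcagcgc
The Pdk1 window holds 1 GCGTG, which begins 78 bases before the start, and the Eno1 window 1 at 230 bases. The Slc16a3 window holds ACGTG at 27 and 14 bases before the start. The Ldha window holds CACGTG at 145 and 48 bases, each of which contains an ACGTG, and 1 further ACGTG at 34 bases. A RefSeq window was matched by symbol for 30 of the 31 members, the other being Slc2a3. CACGTG was found in 5 of the 30 windows (16.7%), against 6.02% of all 32851 windows of the same length. ACGTG was found in 12 (40%), against 16.6%, and GCGTG in 16 (53.3%), against 28.2%. These shares set 1 chosen window per member against all windows, and a gene can have several of these. They are not adjusted for base composition, and a match describes letters in the window, not a bound site.

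The deposited values are read counts per gene scaled by the authors with DESeq2 size factors, called normalized counts below. Recovered depth ran from 17448095 to 26299577 reads per library. The groups were compared gene by gene with limma on log2(normalized count + 1), with Benjamini-Hochberg adjustment over the 13847 genes tested and a threshold of 0.05, and changes are given as labelled Pdpk1 KO minus WT. Pdpk1 itself had 2600, 2374, 1995 and 1923 normalized counts in WT replicates 1 to 4 and 2505, 1900.1, 1872 and 1656 in those labelled Pdpk1 KO (log2 change -0.17, 95% interval -0.45 to 0.11, limma adjusted p = 0.491). This value sums reads over all exons, so it does not check the deletion, and the libraries of the second group are called KO-labelled below. The 6 Treg markers summed to 56729 to 59090 normalized counts in WT and to 54351 to 59663 in the KO-labelled libraries, but within that sum Il2ra rose (log2 change 0.63, adjusted p = 0.00114), Ikzf2 fell (-1.13, adjusted p = 4.5e-06) and 4 were not past the threshold. Of 20 macrophage markers, 18 were tested, and 8 rose, 1 fell (Cybb) and 9 were not past the threshold. None was at 0 in every library, and their sum was 968 to 1995 in WT and 1701 to 4815 in the KO-labelled libraries. Cybb gave 516 to 668 of this sum in WT and 87.0 to 159 in the KO-labelled libraries, against the direction of the sum. Summed without Cybb, the macrophage markers did not overlap between the groups. Their part in the results below was not tested, but each call is given also from a fit with their mean level as a covariate (the macrophage covariate) and from a fit on the 5 libraries (3 WT and 2 KO-labelled) that remain when the 3 with the highest levels, WT replicate 2 and Pdpk1 KO replicates 2 and 3, are dropped (the reduced fit). By this mean level, from the highest, the KO-labelled libraries rank 1, 2, 4 and 5 and the WT libraries 3, 6, 7 and 8. The covariate thus runs partly with the groups, and the 2 cannot be fully separated. Calls over all genes tested were 9.47% without it and 4.67% with it. The 4 B cell markers listed summed to 354 to 528 normalized counts in WT and to 156 to 305 in the KO-labelled libraries, without overlap. Cd79b gave 300 to 469 of this sum in WT and 101 to 195 in the KO-labelled libraries, and it fell (-1.17, adjusted p = 0.00407). Cd79a had a fitted change of the opposite sign, not past the threshold (0.73, adjusted p = 0.258). Ms4a1 and Pax5 were too low to be tested. The part of B cell markers in the results was not tested. Markers of dendritic cells, CD8 T or NK cells and erythroid cells each summed to at most 557 normalized counts in any library, and their groups overlapped.

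Few of these genes were past the threshold, at about the share of all genes tested. Of the 31 members, all of which passed the filter on low values, Pdk1 and Eno1 rose, Slc16a3 fell and 28 were not past the threshold. That is 9.68% of the members, against 9.47% of all genes tested (4.41% higher and 5.06% lower), so the share of members called was close to the background. The median log2 change was -0.09 over the members and -0.01 over all genes tested. Fitted values lay above 0 for 13 members and below 0 for 18. The members were measured with a median SE of 0.115 on the log2 scale, against 0.175 over all genes tested. For 21 of the 31 the 95% interval of the change lay wholly within 0.5 log2 units of 0 on both sides. The intervals of the members not past the threshold reached from -1.02 (Aldoc) to 1.19 (Hk2). The groups did not overlap for 10 members (32.3%), against 15.3% of all genes tested. Of these, 7 were higher in the KO-labelled libraries (7.06% of all genes) and 3 were lower (8.24% of all genes). At an unadjusted limma p under 0.05, 7 members were higher and 4 lower, against 10.8% and 12.2% of all genes tested.

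**Figure D1:**
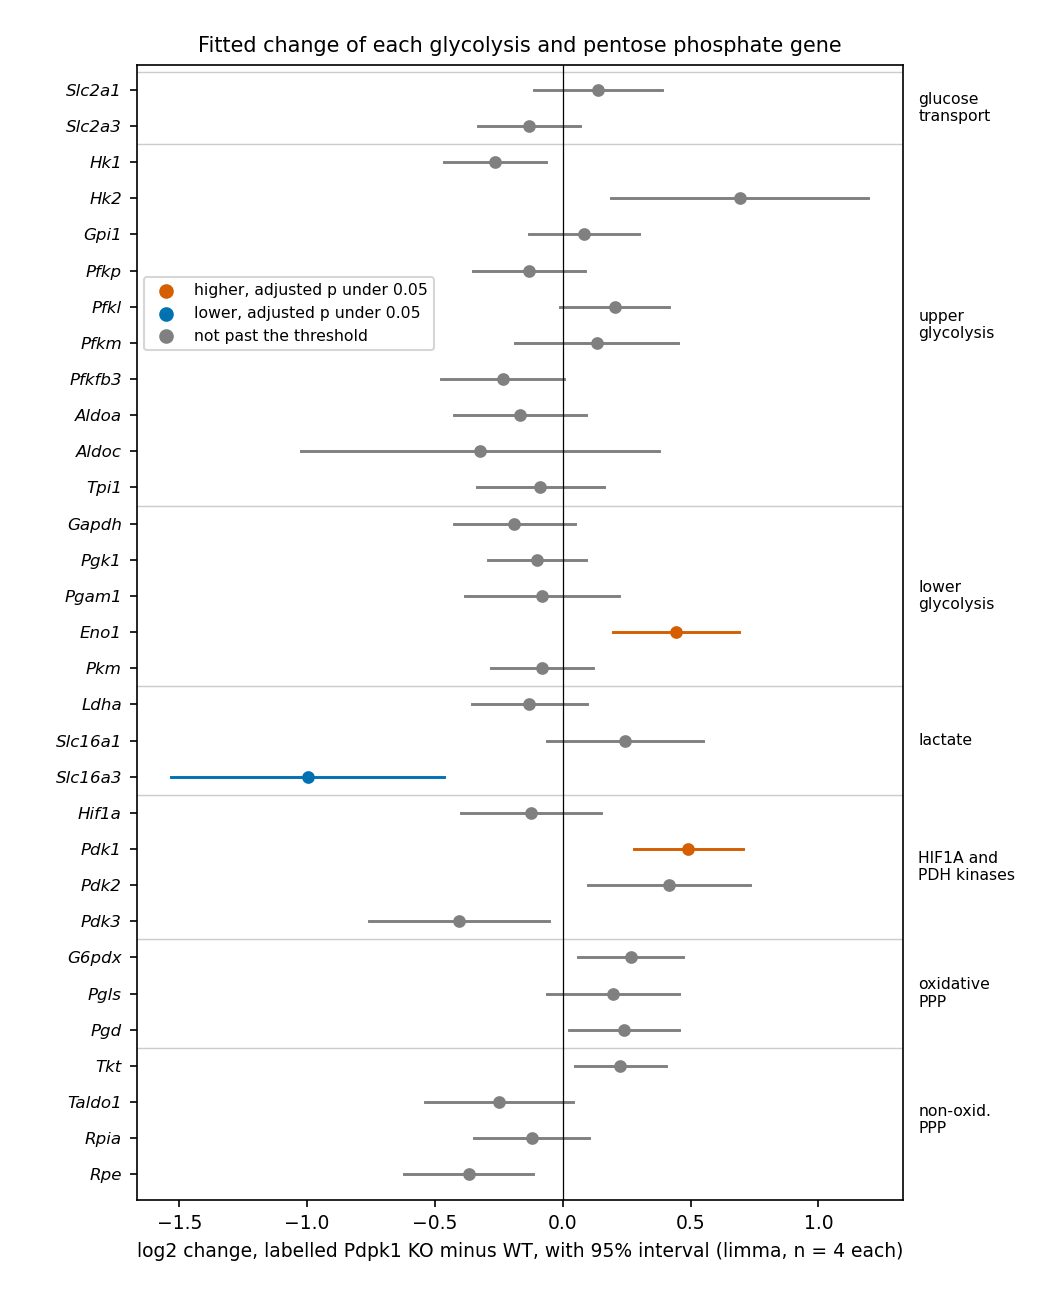
Fitted log2 change of each of the 31 members, labelled Pdpk1 KO minus WT, with its 95% interval (limma, n = 4 libraries each), grouped by role. Colour marks Pdk1 and Eno1 (higher) and Slc16a3 (lower), and the other 28 members are grey.

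**Figure D2:**
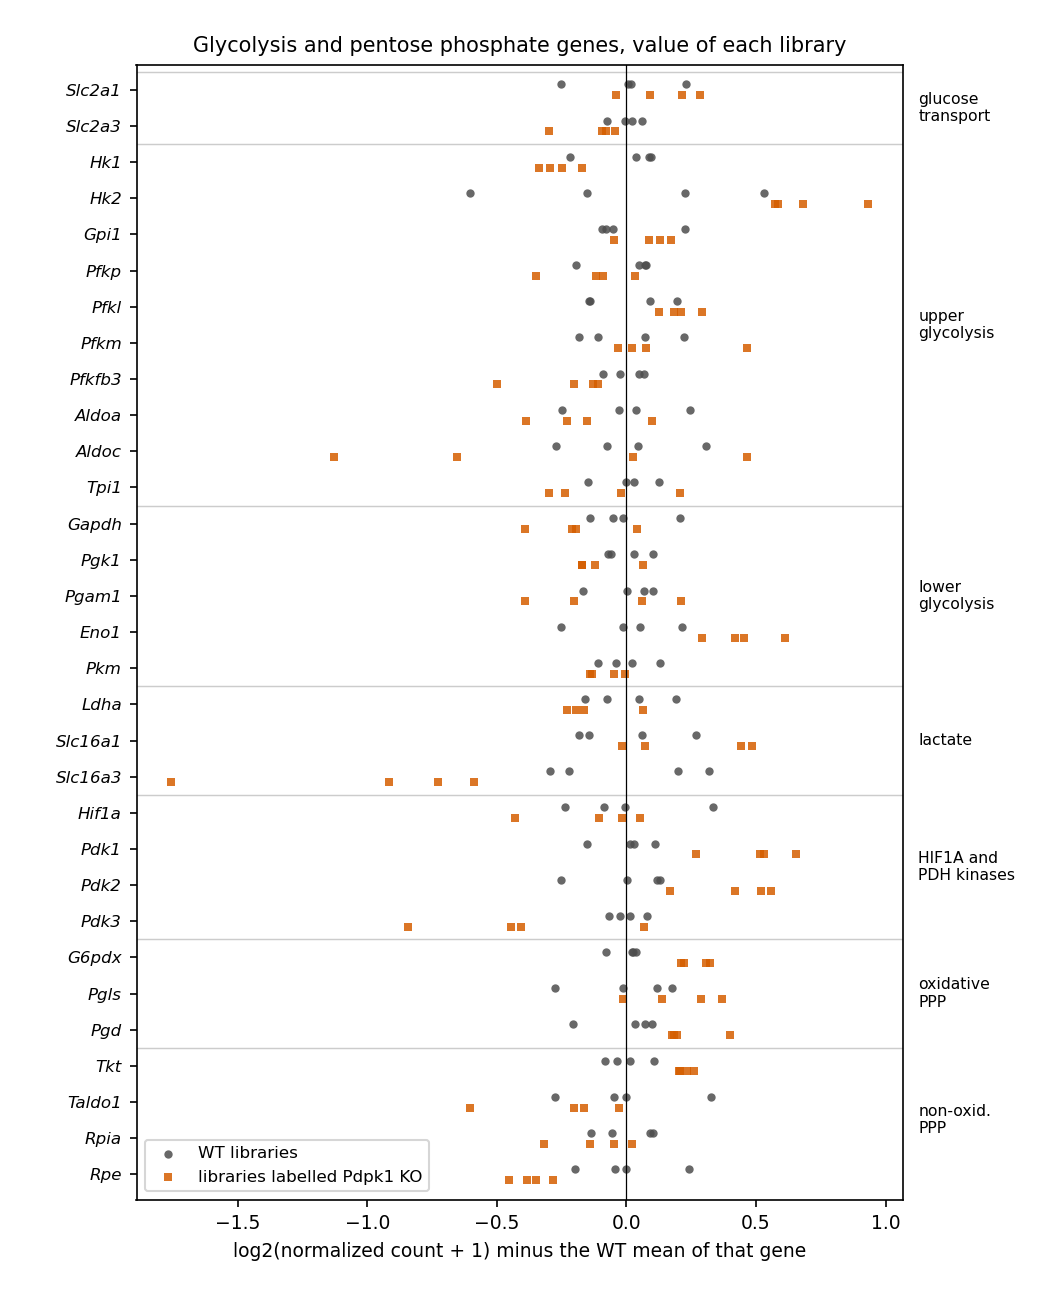
Value of each member (rows, by role) in each of the 8 libraries as the difference of log2(normalized count + 1) from that gene's WT mean, 1 point per library. Of the called genes, Eno1 and Pdk1 are above their WT mean in all 4 KO-labelled libraries, and Slc16a3 is below it in all 4. Several members not past the threshold also lie on 1 side, among them Hk2 and Tkt above and Hk1 and Rpe below.

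Neither glucose transporter was past the threshold. Slc2a1 encodes GLUT1, the transporter that T cells raise on activation (ENSMUSG00000028645, GRCm38 chromosome 4, 119108711 to 119137983). It had 1029, 1233, 1242 and 1438 normalized counts in WT replicates 1 to 4 and 1424, 1194, 1307 and 1495 in the KO-labelled libraries. The groups overlapped, with a log2 change of 0.14 (95% interval -0.11 to 0.39, adjusted p = 0.541). Slc2a3, which encodes the high-affinity transporter GLUT3, ran from 1732 to 1904 in WT and from 1484 to 1769 in the KO-labelled libraries (adjusted p = 0.451). Levels of different genes are compared per kb of exon. The length used merges all annotated exons of a gene and can exceed that of the expressed mRNA. Ranks and shares between genes on this scale are therefore approximate. On it Slc2a1 made up 58.1 ± 3.32% of the Slc2a1 and Slc2a3 transcripts in WT and 62.5 ± 3.27% in the KO-labelled libraries (SD, n = 4 each). The groups overlapped.

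The hexokinases, which trap glucose inside the cell, lay on opposite sides of 0, and neither passed the threshold. Hk2, the inducible hexokinase (ENSMUSG00000000628, chromosome 6, 82725025 to 82774454), had 148, 238, 108 and 192 normalized counts in WT and 245, 264, 314 and 247 in the KO-labelled libraries. All 4 of the latter lay above all 4 WT values, and the log2 change was 0.69 ± 0.24 (SE, 95% interval 0.19 to 1.19, adjusted p = 0.0823). Hk1, the constitutive hexokinase, had 5019, 5191, 5216 and 4208 in WT and 3987, 4336, 4114 and 3865 in the KO-labelled libraries. Its groups overlapped only through WT replicate 4 and Pdpk1 KO replicate 2, at a log2 change of -0.26 ± 0.09 (SE, adjusted p = 0.0946). Per kb of exon Hk1 remained far more abundant, at 575 ± 55.7 against 28.7 ± 9.40 for Hk2 in WT (SD, n = 4). The share of Hk2 in the transcripts of both was 2.87 to 6.14% in WT and 8.01 to 9.85% in the KO-labelled libraries, without overlap. With the macrophage covariate the change of Hk2 was 0.35 (adjusted p = 0.589), and in the reduced fit it was 0.76 (adjusted p = 0.254).

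The other enzymes that prepare glucose for cleavage were not past the threshold. Aldoa, the aldolase that splits fructose 1,6-bisphosphate and the most abundant of these transcripts per kb of exon, had 6359, 7746, 8954 and 7405 normalized counts in WT and 5772, 8102, 6811 and 6446 in the KO-labelled libraries. The groups overlapped widely (log2 change -0.17, adjusted p = 0.454). The isomerase genes Gpi1 and Tpi1 were at 0.08 and -0.09 (adjusted p = 0.68 and 0.717). The phosphofructokinase genes, whose product sets the pace of glycolysis, were at log2 changes of -0.13 for the platelet form Pfkp, 0.20 for the liver form Pfkl and 0.13 for the muscle form Pfkm (adjusted p = 0.498, 0.248 and 0.66). As whole gene spans, Pfkp overlaps Pitrm1 and Pfkm overlaps Senp1 on the opposite strand, at means of 1263 and 1470.0 normalized counts. Overlap of exons was not examined for any member. Reads of any exon stretch that such pairs share cannot be told apart without a stated strand setting. Pfkfb3 makes fructose 2,6-bisphosphate, which activates phosphofructokinase. It stood at 1042 to 1160.0 in WT and at 783 to 1026 in the KO-labelled libraries, lower in all 4, but was not past the threshold (-0.24, 95% interval -0.48 to 0.00, adjusted p = 0.227). Aldoc, the aldolase of low abundance here, had the widest interval of the group, with 54.9 to 168 normalized counts in the KO-labelled libraries against 100.3 to 150.2 in WT.

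Among the enzymes that yield ATP and pyruvate, Eno1 was the 1 that rose. Eno1 encodes enolase 1, which makes phosphoenolpyruvate (ENSMUSG00000063524, chromosome 4, 150236721 to 150248879, plus strand). It had 14014, 17334, 19400 and 16545 normalized counts in WT and 20453, 25517, 22895 and 22360 in the KO-labelled libraries. The groups did not overlap, and the change was 1.36-fold (log2 0.44 ± 0.12 SE, 95% interval 0.20 to 0.69, adjusted p = 0.0234). The size and the call of Eno1 varied with the processing. Its change was 0.29 with the macrophage covariate (adjusted p = 0.304), 0.37 in the reduced fit (adjusted p = 0.36) and 0.30 after quantile normalization, where it stayed past the threshold. Leaving out WT replicate 1 or 4, or Pdpk1 KO replicate 2 or 3, gave 0.36, 0.44, 0.39 and 0.44 and ended the call (adjusted p = 0.058, 0.0638, 0.0764 and 0.0695).

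The neighbours of Eno1 in the pathway were not past the threshold. Gapdh, the dehydrogenase whose transcript was the most abundant of this stage in WT per kb of exon, had 14658, 15578, 18624 and 15978 normalized counts in WT and 12321, 16594, 13962 and 14112 in the KO-labelled libraries. These groups overlapped, with a log2 change of -0.19 (95% interval -0.43 to 0.05, adjusted p = 0.35). Gapdh overlaps Iffo1 on the opposite strand, which had a mean of 723 normalized counts. The kinase genes Pgk1 and Pkm and the mutase gene Pgam1 were at -0.10, -0.08 and -0.08 (adjusted p = 0.562, 0.669 and 0.793). As a ratio within each library, Eno1 over Gapdh was 0.956 to 1.113 in WT (mean 1.04 ± 0.0641) and 1.54 to 1.66 in the KO-labelled libraries (mean 1.61 ± 0.0554; SD, n = 4 each). The ratio cancels the size factor, and its groups lay well apart, by more than the spread within either. Gapdh, its denominator, had the lowest fitted change of this stage. Over Pgam1, per kb of exon, Eno1 stood at 7.07 to 9.83 in WT and at 11.6 to 15.5 in the KO-labelled libraries. These groups did not overlap either, but the gap was smaller than the spread within each. Per kb of exon, the order in WT was Gapdh at 3922, Pkm at 3218 and Eno1 at 3128, while in the KO-labelled libraries it was Eno1 at 4240, Gapdh at 3447 and Pkm at 3039. The WT levels of Pkm and Eno1 do not differ beyond their SDs of 229 and 414.

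**Figure D3:**
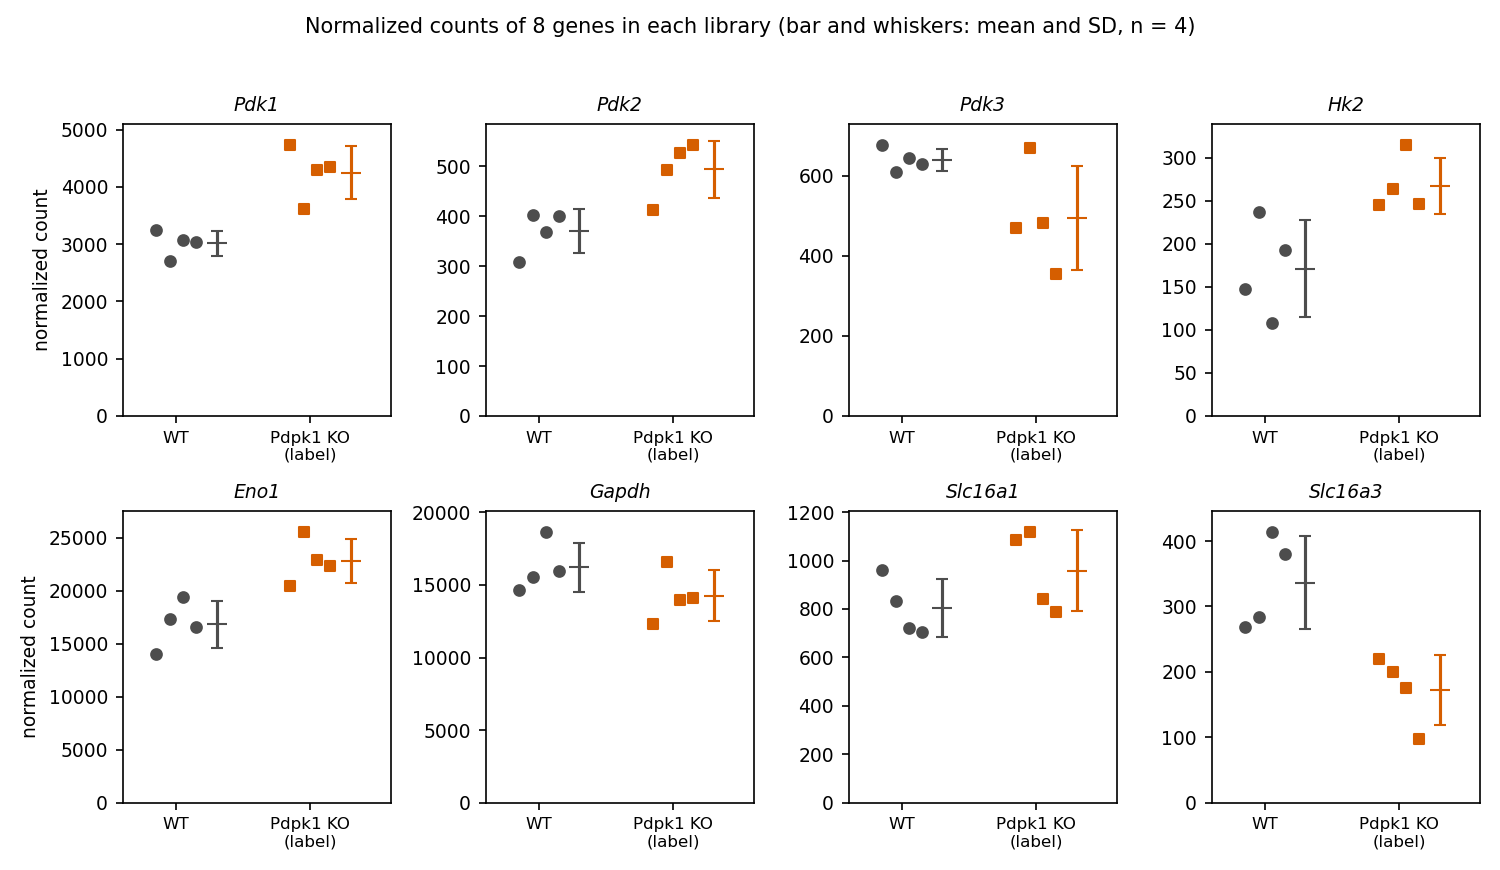
Normalized counts of Pdk1, Pdk2, Pdk3, Hk2, Eno1, Gapdh, Slc16a1 and Slc16a3 in the 4 WT libraries and the 4 KO-labelled libraries, 1 point per library in replicate order, with the group mean and SD. Pdk1, Eno1, Hk2 and Pdk2 are higher and Slc16a3 lower in all 4 KO-labelled libraries, while the Gapdh, Pdk3 and Slc16a1 groups overlap. Hk2 and Pdk2 were not past the threshold.

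The gene of lactate formation was not past the threshold, while that of a lactate exporter fell. Ldha, the lactate dehydrogenase gene and the most abundant member per kb of exon in WT (4211 ± 451, SD, n = 4), had 12407, 14336, 15839 and 13177 normalized counts in WT and 11841, 14523, 12395 and 12135 in the KO-labelled libraries. Its groups overlapped (log2 change -0.13, 95% interval -0.35 to 0.09, adjusted p = 0.513). Slc16a3 encodes MCT4, a transporter that exports lactate from highly glycolytic cells (ENSMUSG00000025161, chromosome 11, 120948480 to 120960868, plus strand). It had 269, 284, 413 and 380 normalized counts in WT and 220, 199, 175 and 97.3 in the KO-labelled libraries. Every WT value lay above every value of the other group, and Slc16a3 fell to 0.501 of its WT level (log2 change -0.997 ± 0.25 SE, 95% interval -1.53 to -0.46, adjusted p = 0.0198). In a bulk sample, fewer cells that express a gene and less RNA per cell cannot be told apart. In the fit with the macrophage covariate Slc16a3 was at -1.12 and in the reduced fit at -1.25, past the threshold in neither (adjusted p = 0.0659 and 0.0749), and its call ended also without WT replicate 3 or 4 (-0.89 and -0.93, adjusted p = 0.068 and 0.0701).

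Slc16a1, which encodes the widely expressed lactate transporter MCT1, had a fitted change of the opposite sign, not past the threshold. It had 962, 833, 723 and 703 normalized counts in WT and 1086, 1117, 840 and 788 in the KO-labelled libraries (log2 change 0.24, 95% interval -0.06 to 0.55, adjusted p = 0.343). Per kb of exon, the share of Slc16a3 in the transcripts of both transporters was 18.9 to 32.3% in WT and 9.31 to 14.8% in the KO-labelled libraries, without overlap.

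Of the 3 pyruvate dehydrogenase kinases, Pdk1 rose. Pdk1 (ENSMUSG00000006494, chromosome 2, 71873224 to 71903858, plus strand) had 3242, 2705, 3066 and 3037 normalized counts in WT and 4726, 3617, 4300 and 4346 in the KO-labelled libraries. The groups were apart, and the change was 1.41-fold (log2 0.49 ± 0.10 SE, 95% interval 0.28 to 0.71, adjusted p = 0.0054). Pdk1 was past the threshold under all 18 alternatives run, at log2 changes of 0.44 to 0.67 and adjusted p of 7.09e-05 to 0.0461. It was at 0.67 with the macrophage covariate and at 0.54 in the reduced fit. No other member was past the threshold under all of them.

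Pdk2, a more constitutive kinase of the same family, had 309, 403, 369 and 400 normalized counts in WT and 413, 493, 528 and 542 in the KO-labelled libraries. All 4 of the latter were above WT, but the change was not past the threshold (0.42 ± 0.15 SE, adjusted p = 0.097). The change of Pdk2 was 0.25 with the macrophage covariate (adjusted p = 0.553) and 0.405 in the reduced fit (adjusted p = 0.422). Pdk3 had 676, 609.8, 645 and 630 in WT and 470, 671, 483 and 356 in the KO-labelled libraries. Pdpk1 KO replicate 2 lay within the WT range and the other three below it (log2 change -0.41 ± 0.16 SE, adjusted p = 0.148). Summed per kb of exon, the 3 kinases stood at 754 ± 28.3 in WT and 895 ± 23.9 in the KO-labelled libraries (SD, n = 4 each), without overlap. Pdk3 made up 33.1 ± 0.705% of that sum in WT and 21.6 ± 5.77% in the KO-labelled libraries, again without overlap. The share of Pdk1 was 51.3 ± 1.97% and 60.9 ± 5.89%, with groups that overlapped.

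Hif1a, which encodes the oxygen-regulated subunit of HIF1 and acts on many of the genes above, did not pass the threshold. It had 5173, 3867, 4087 and 3484 normalized counts in WT and 4262, 4064, 3816 and 3048 in the KO-labelled libraries, with overlapping groups (log2 change -0.12, 95% interval -0.40 to 0.15, adjusted p = 0.624). HIF1A is controlled mainly through stability of the protein, which was not measured. Myc, in contrast, rose from 3753 ± 150 to 8809 ± 822 normalized counts (SD, n = 4 each, adjusted p = 1.27e-06). Its log2 change was 1.227 in the fit of all libraries, 1.209 after adding the macrophage covariate and 1.245 in the reduced fit, past the threshold in each.

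**Figure D4:**
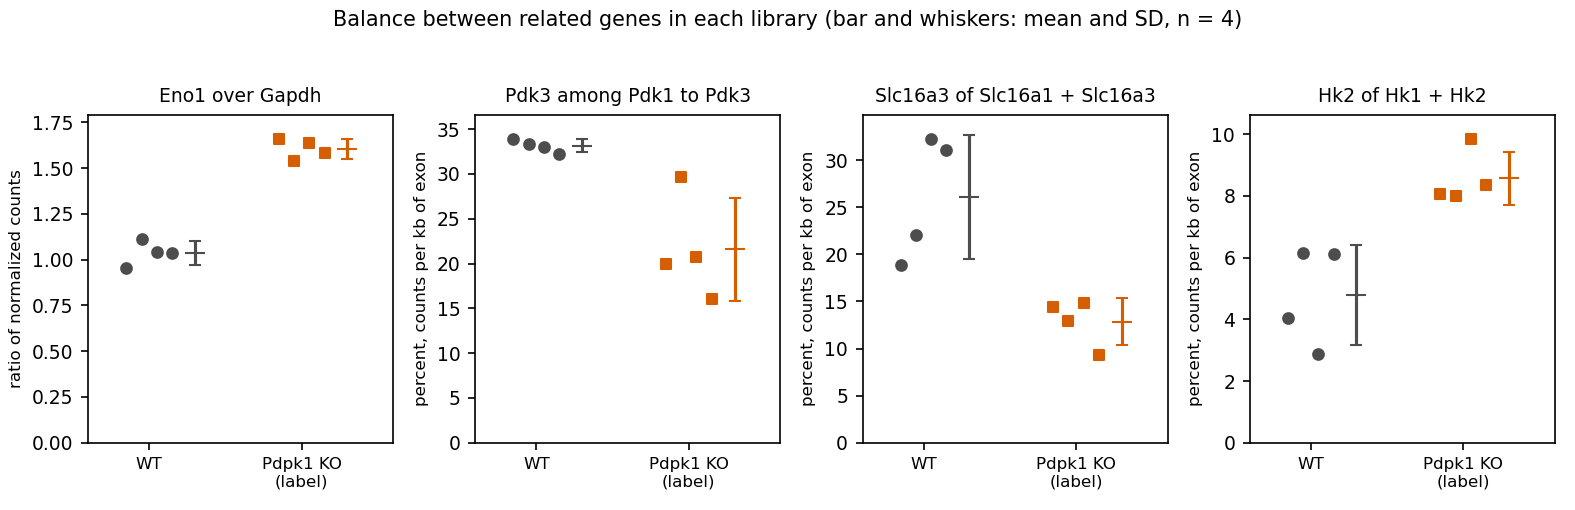
Balances between related members in each library, with the group mean and SD (n = 4 each): Eno1 over Gapdh as a ratio, and the percentages of hexokinase, lactate transporter and pyruvate dehydrogenase kinase transcripts per kb of exon. The Eno1 over Gapdh ratio and the Hk2 share are higher, and the Slc16a3 and Pdk3 shares lower, in all 4 KO-labelled libraries.

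The oxidative branch of the pentose phosphate pathway, which makes NADPH, had fitted changes above 0 for all 3 genes, none of them past the threshold. G6pdx encodes glucose 6-phosphate dehydrogenase, the entry enzyme (ENSMUSG00000031400, chromosome X, 74409483 to 74429194). It had 974, 982, 973 and 906 normalized counts in WT and 1184, 1199.9, 1119 and 1109 in the KO-labelled libraries. The groups did not overlap, with a log2 change of 0.27 ± 0.10 (SE, 95% interval 0.06 to 0.47, adjusted p = 0.103). The span of G6pdx overlaps that of Ikbkg on the opposite strand, which had a mean of 1188 normalized counts. Without a stated strand setting, reads of any exon stretch they share cannot be told apart. Pgls, the lactonase of the next step, had 1026, 1231, 1405 and 1348 in WT and 1233, 1369, 1519 and 1607 in the KO-labelled libraries, which overlapped (0.20, adjusted p = 0.376). Pgd, which makes ribulose 5-phosphate, was at 1447 to 1787 in WT and 1885 to 2204 in the KO-labelled libraries, without overlap (0.24, 95% interval 0.02 to 0.45, adjusted p = 0.165). The sum of the 3 was 3702 to 4133 in WT and 4311 to 4772 in the KO-labelled libraries, without overlap.

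The non-oxidative branch, which exchanges pentoses with glycolytic sugars, held members on both sides of 0. Tkt, the transketolase gene, had 4980.5, 4823, 5507 and 5163 normalized counts in WT and 5907, 6008, 5880 and 6122 in the KO-labelled libraries, all above WT (0.23 ± 0.08 SE, adjusted p = 0.107). Taldo1, the transaldolase gene and the most abundant of this branch per kb of exon, had 3226, 3896, 4896 and 3774 in WT and 2569, 3393, 3830 and 3484 in the KO-labelled libraries, which overlapped (-0.25, adjusted p = 0.303). Rpe, the epimerase gene, had 889, 1084, 916 and 798 in WT and 753, 668, 718 and 701 in the KO-labelled libraries. All 4 of the latter were below WT, and with a log2 change of -0.37 ± 0.12 (SE, 95% interval -0.62 to -0.12, adjusted p = 0.0636) Rpe was not past the threshold. The isomerase gene Rpia was at -0.12 (adjusted p = 0.548). The span of Rpe overlaps that of Kansl1l on the opposite strand, at a mean of 261 normalized counts.

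Within each group, 1 library held the highest value of many members. WT replicate 3 held the WT maximum for 15 of the 31 (48.4%), against 25.3% of all genes tested, and Pdpk1 KO replicate 2 that of its group for 17 (54.8%), against 26.7%. Genes such as Gapdh, Pkm and Ldha had both maxima in these libraries, while Hk2 and Aldoc had neither. Pdpk1 KO replicate 2 is also 1 of the 3 libraries highest in macrophage markers, and WT replicate 3 is not. The members together took 0.626 ± 0.0228% of all normalized counts in WT and 0.589 ± 0.0185% in the KO-labelled libraries (SD, n = 4 each), with overlapping groups.

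Genes of the same pathways outside the 31 were counted in the same fit. Of 27 other tested genes of glucose transport and glycolysis, 2 rose, 1 fell and 24 were not past the threshold (11.1% called, against 9.47% of all genes tested, with a median log2 change of 0.04). Galm encodes the mutarotase that interconverts the anomers of glucose and galactose. It fell from 666 ± 171 to 277 ± 78.8 normalized counts (SD, n = 4 each), a log2 change of -1.27 (adjusted p = 0.00167). Adpgk, an ADP-dependent glucokinase, had 2211, 1587, 1514 and 1784 in WT and 3603, 2526, 2596 and 2994 in the KO-labelled libraries, without overlap (0.72, adjusted p = 0.00277). Pgm2l1, which makes glucose 1,6-bisphosphate, rose by 0.73 (adjusted p = 0.00803). With the macrophage covariate Galm and Adpgk were at -1.61 and 1.01, in the reduced fit at -1.55 and 0.86, and past the threshold in both fits. Pgm2l1 with the covariate was at 0.56 and not past it (adjusted p = 0.142), nor in the reduced fit (0.61, adjusted p = 0.151).

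Of 8 other tested pentose phosphate genes, 1 rose, 1 fell and 6 were not past the threshold (25% called, against 9.47% of all genes tested, with a median of -0.04). Prps1 encodes the synthetase that turns ribose 5-phosphate into PRPP for nucleotides. It had 1231, 1206, 1270.4 and 1080.2 normalized counts in WT and 1682, 1854, 1434 and 1364 in the KO-labelled libraries (0.39, adjusted p = 0.0405). The Prps1 groups did not overlap, but the call ended with the macrophage covariate (0.36, adjusted p = 0.227), in the reduced fit (0.35, adjusted p = 0.323) and in 7 of 8 fits that each left out 1 library, the exception being the fit without Pdpk1 KO replicate 4. The transketolase-like gene Tktl1 had few reads, with 14.7 to 44.8 normalized counts in WT, 7.4 in Pdpk1 KO replicate 1 and 0 in the other three, where a count of 0 allows up to 3.38. Its fitted log2 change was -4.02 (adjusted p = 0.0141) and -2.34 with a pseudocount of 5. It was -3.57 with the macrophage covariate and -3.00 in the reduced fit, and the call ended in both (adjusted p = 0.153 and 0.209). It ended also without WT replicate 2 or 4 (adjusted p = 0.0698 and 0.0528).

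Genes of pyruvate entry and the pyruvate dehydrogenase complex, the target of the Pdk kinases, had 0 of 11 tested members past the threshold in limma (3 higher and 0 lower at an unadjusted p under 0.05, against 10.8% and 12.2% of all genes tested). On the recovered reads edgeR called 0 of them and DESeq2 called 1, Dld, which was higher. Their median log2 change was 0.16. The genes of its E1 subunits, Pdha1 and Pdhb, were the most abundant, with log2 changes of 0.26 and 0.16 (adjusted p = 0.0938 and 0.357).

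Of 20 tested genes of HIF regulation and the hypoxia response outside glycolysis, 4 rose, 1 fell and 15 were not past the threshold (25% called, against 9.47% of all genes tested, with a median of -0.01). P4ha1, a subunit of collagen prolyl 4-hydroxylase, had 2011, 2541, 2232 and 1801 normalized counts in WT and 3725, 3778, 4081 and 4320 in the KO-labelled libraries. The P4ha1 groups lay far apart (0.90 ± 0.11 SE, adjusted p = 8.21e-05), and it was past the threshold also with the macrophage covariate (0.81) and in the reduced fit (0.999). Mxi1, which encodes an antagonist of Myc, and the stress-response gene Ndrg1 rose by 0.54 and 0.76 (adjusted p = 0.00671 and 0.0129). Their calls ended with the macrophage covariate, at 0.42 and 0.55 (adjusted p = 0.13 and 0.208), and in the reduced fit, at 0.44 and 0.85 (adjusted p = 0.182 and 0.109). The other calls, named after their values were seen, were the histone demethylase gene Kdm3a at 0.38 (adjusted p = 0.0269) and Ddit4, an inhibitor of mTORC1, at -0.74 (adjusted p = 0.0419). Kdm3a was at 0.43 with the covariate and 0.52 in the reduced fit (adjusted p = 0.0752 and 0.0665), and Ddit4 at -1.14 and -0.90 (adjusted p = 0.00822 and 0.0894). Ddit4 was also not past the threshold in DESeq2 (adjusted p = 0.0932). Leaving out single libraries also ended the calls of Kdm3a (WT replicate 3 or 4, Pdpk1 KO replicate 1, 3 or 4) and Ddit4 (WT replicate 2 or 3, Pdpk1 KO replicate 1, 3 or 4).

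The number of members called varied across the alternatives. It was 6 of 31 after quantile normalization and 6 with DESeq2, against 9.83% and 12.9% of all genes. With a replicate block it was 10 (18.3% of all genes), with the macrophage covariate 1 (4.67%) and in the reduced fit 1 (3.41%), which was Pdk1 in both.

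**Figure D5:**
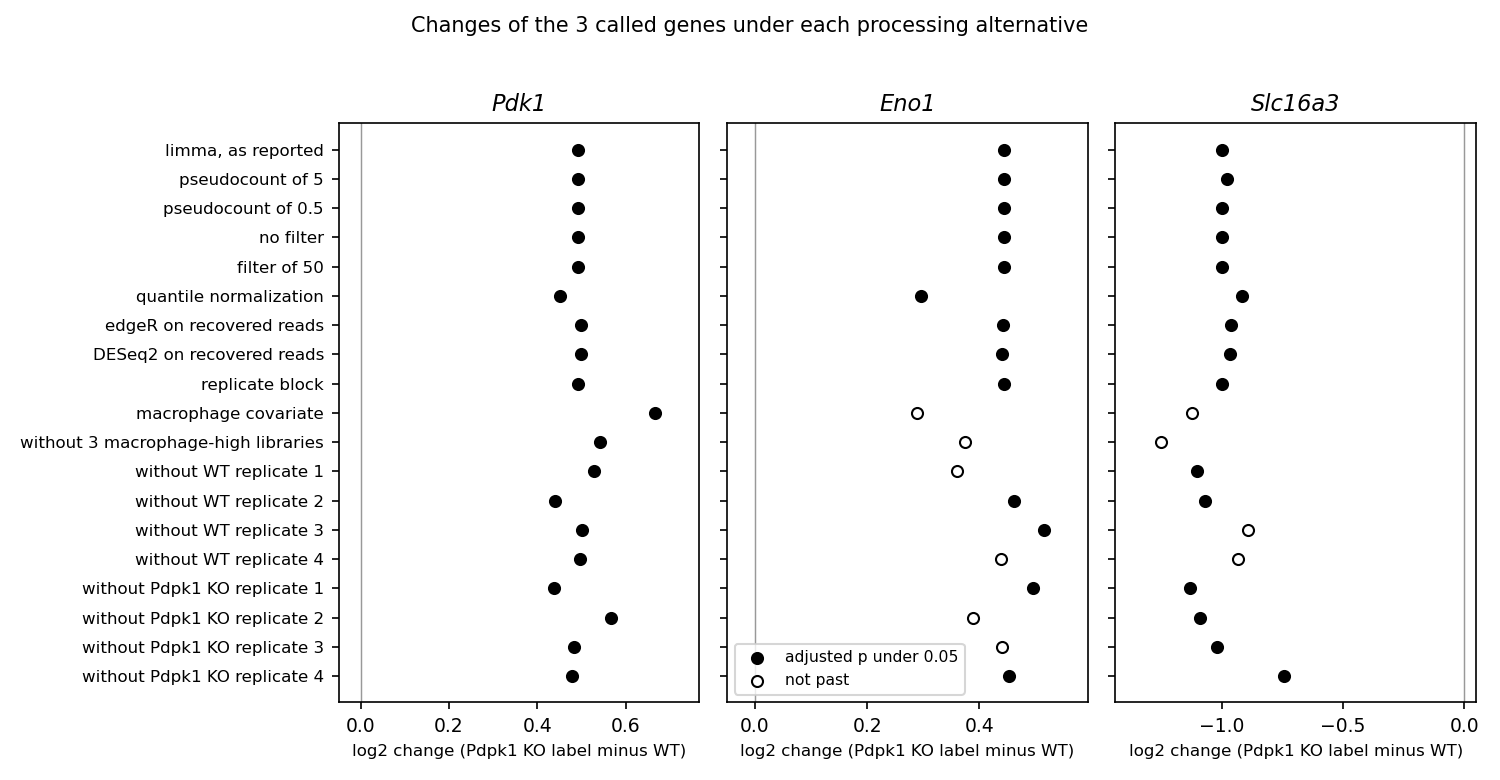
Log2 change of Pdk1, Eno1 and Slc16a3 (labelled Pdpk1 KO minus WT) in the reported fit and under each of the 18 alternatives, filled where the adjusted p was under 0.05. Pdk1 is filled throughout, while Eno1 has 6 and Slc16a3 has 4 open points.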

How the data were processed

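Polyadenylated RNA of 8 Treg libraries was analysed, 4 per group as labelled. The authors deposited 1 normalized signal value per gene and library, read counts scaled by DESeq2 size factors. Per the submitters' processing notes, the tools included STAR 2.7.6a, Subread 2.0.1 with featureCounts and DESeq2 1.21, and the build was GRCm38. No strand setting or annotation release was given in the sources used here. All values (100%) were whole multiples of 1 read within a tolerance of 0.001, so reads were recovered, at 17448095 to 26299577 per library. A count of 0 allows up to 3 reads, or 2.56 to 3.38 normalized counts, for counting error only. Symbols and positions are from GENCODE M21 (19785 of 19826 genes matched). Exon lengths for values per kb are the merged exons of each gene. Promoters are RefSeq's.

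Genes with a normalized count of 10 or more in at least 4 libraries were tested (13847, leaving out 5979) with limma 3.58.1 in R 4.3.3 (lmFit, eBayes with trend) on log2(normalized count + 1), two-sided, with Benjamini-Hochberg adjustment. This scale understates the change of low genes. Unless a tool is named, adjusted p-values come from limma. Shares, sums and ratios of members have no test. Alternatives were pseudocounts of 5 and 0.5, no filter, a filter of 50, quantile normalization, edgeR 4.0.16 and DESeq2 1.42.0 on the recovered reads, a replicate block, the macrophage covariate, and leaving out libraries. Each of these tools was first run on simulated counts with known changes and the same spread setting for every gene. Real libraries vary in other ways, so this run does not gauge the error rates of the tools here.

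All members are accounted for. Values of every library are given for members past the threshold in any fit and for the most abundant member of each role. Of each list of related genes, the text names up to 3 called genes in order of adjusted p, or the 2 most abundant where none was called. The members, lists and tests were chosen with earlier results of these data known. Annotated copies with at least 95% identity over 300 bases existed for 8 members, and the listed copies summed to at most 0.999% of the member's normalized count. How reads shared with such copies were counted was not given in the sources used here.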

Additional observations from a re-analysis of the deposited data

Results flagged for a closer look

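In 7 of 136 groups of 4 libraries, 1 library lay far from the other three by Dixon's test (4 of the 62 groups of single members), where chance flags about 1 in 20. Gpi1 was at 15313.4 normalized counts in WT replicate 3, against 12248.7 to 12623.7 in the other WT libraries. WT replicate 4 was low for Pfkp, at 2611.9 against 3089.4 to 3153.1, and for G6pdx, at 906.3 against 973.1 to 981.9. Pgd was at 2203.6 in Pdpk1 KO replicate 2, against 1885.1 to 1907.5 in the others of that label. The summed normalized count of lactate formation and export (Ldha, Slc16a1 and Slc16a3) was 15838.6 in Pdpk1 KO replicate 2, against 13021.1 to 13409.5. Tktl1 was at 7.4 in Pdpk1 KO replicate 1 and at 0 in the other three. Pfkp made up 36.1% of the phosphofructokinase transcripts per kb of exon in WT replicate 1, against 32.7 to 33.1% in the other WT libraries.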

How the results depend on the processing

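Of 558 values of members under the 18 alternatives, 530 kept their direction and side of the threshold, 10 lost a call, 16 gained one and 2 reversed. The count of members that rose was 6 with a replicate block, 1 with the macrophage covariate, 1 when the 3 libraries with the highest macrophage markers were dropped (the reduced fit), and 1 to 3 when each replicate was left out in turn. The count that fell was 3 after quantile normalization, 3 with DESeq2, 4 with the replicate block, 0 with the macrophage covariate, 0 in the reduced fit, and 0 to 2 when each replicate was left out. Over all genes tested, those that rose numbered 1243 with the replicate block, 289 with the covariate, 167 in the reduced fit, and 389 to 588 when each replicate was left out. Those that fell numbered 1292, 357, 305 and 495 to 724. Fewer libraries enter the fits that leave some out, and the cause of the other shifts was not tested. The block added Hk2, Pdk2, G6pdx and Tkt to the members that rose, and Hk1, Rpe and Taldo1 to those that fell. The labels do not say whether replicate numbers pair libraries, and the main fit treats them as unpaired. Same-numbered libraries had correlations of deviations of 0.217, 0.0921, 0.0481 and 0.113, against -0.156 to 0.109 for different numbers. Of the WT libraries, 3 of 4 correlated best with their own number. Whether these values reflect pairing was not tested. Quantile normalization added Hk2 to the members that rose and Hk1 and Gapdh to those that fell, and DESeq2 added Tkt, and Hk1 and Rpe. The values that reversed were Gpi1 (-0.00734 in the reduced fit), Pgam1 (0.0227 without Pdpk1 KO replicate 4, in a range of -0.178 to 0.0227 over fits without 1 replicate) and, outside the members, Foxp3 (-0.00924 without Pdpk1 KO replicate 1, in a range of -0.00924 to 0.166), none past the threshold. The change of Pdpk1 was not past the threshold in any fit (-0.289 to -0.0795). Depth limits Aldoc (938 reads over all libraries), Hk2 (1768), Slc16a3 (2081) and Tktl1 most.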
